A study of Homo sapiens with 4 samples.

Results

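The antisense long noncoding RNA genes of HEK293T cells were taken as the genes whose names end in -AS with or without a digit. Their sites of N6-methyladenosine (m6A) were kept where every one of the 4 libraries listed the site with 20 or more reads of A or G, which gave 536 sites in 126 antisense genes out of 78509 sites in all and 10782 genes. At any depth, 614 sites of 140 antisense genes were listed in all 4 libraries, and 1549 sites of 225 genes in at least 1. The sense gene named before the hyphen had tested sites of its own for 90 of the 126 genes, with 755 sites.

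HEK293T is an established human embryonic kidney line. The 2 groups were compared by GLORI, in which glyoxal and nitrite turn unmethylated A into a base that sequencers call G and leave m6A as an A. The ascorbic acid group (2 libraries) received ascorbic acid for 36 h from 24 h after seeding, with medium renewed every 6 h, at a dose that was not stated in the labels. The control group (2 libraries) carries the wild-type label, and both groups are the same line with mRNA capture from total RNA. Whether replicates were separate cultures is not stated in the labels, so p-values measure the spread between these libraries, which may be technical. The title of the study names Fe(II)-dependent dioxygenases as its subject. The m6A level of a site is its A reads as a percentage of its A plus G reads.

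An antisense RNA is transcribed from the strand opposite to a sense gene, often from a shared or neighbouring promoter, and most are spliced and polyadenylated without coding for protein. Some act on the sense gene and others have functions unrelated to it. m6A is placed by a methyltransferase complex around METTL3, mostly at an A followed by C, and is removed by FTO and ALKBH5, dioxygenases that need Fe(II), for which ascorbate can act as a reductant.

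Of the 126 names, 114 were current RefSeq symbols and 12 were synonyms, 9 of which are now named as divergent transcripts. RefSeq classed 123 as long noncoding RNA, 2 as antisense RNA and 1, TP73-AS1, as a transcribed pseudogene (GFOD3P). All 430 sites with an annotated strand, in 98 genes, lay on that strand. Strand and span were known for 116 of the genes and their sense genes, and all 116 lay on opposite strands. The starts of both genes were within 1000 nt in 59 of these, the antisense gene lay inside the sense gene in 15, overlapped it otherwise in 38 and did not overlap it in 4. Exon and intron positions were not assigned here.

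The base context could be read for 27 sites of 18 antisense genes that lie in the RefSeq promoter windows of GRCh38.p14, and 8 of them are shown to let the motif be set beside the level. They were picked after their values were seen. Capitals mark the methylated A with 2 bases on each side.
MBNL1-AS1 site at chr3:152268921-152268941, minus strand: cagtgaaaAGACTgttgcatg
WARS2-AS1 site at chr1:119140763-119140783, plus strand: tatcgggcGGACTgcagttct
IPO9-AS1 site at chr1:201829524-201829544, minus strand: cctctctcGGACTttcacaac
PRKCQ-AS1 site at chr10:6580831-6580851, plus strand: cggacctgGGACTtttcctgt
ZNF503-AS2 site at chr10:75401986-75402006, plus strand: gacgagatGGACAtttattct
TMPO-AS1 site at chr12:98515367-98515387, minus strand: ccgataagGGACAggtcgtac
TMPO-AS1 site at chr12:98515358-98515378, minus strand: gacaggtcGTACTgcttttgt
MAPKAPK5-AS1 site at chr12:111841920-111841940, minus strand: ttggggccTCAGCctttatct
The A was followed by C at 26 of the 27 sites, against 21.3% of all A on both strands of 34943 promoter windows. GGAC stood at 15 sites (1.89% of all A) and GGACT, which contains it, at 7 (0.473% of all A). GGAC was present on either strand in 87.4% of the windows and GGACT in 44.1%. These shares describe sites that a caller had already picked as methylated. The site of MAPKAPK5-AS1 was the 1 site without a C after the A, at 20.5% and 22.2% with ascorbic acid and 20.7% and 17.9% in control. The same GGACT held very different levels. It was at 63.3% and 57.3% with ascorbic acid against 67.0% and 69.9% in control for WARS2-AS1. For PRKCQ-AS1 it was at 16.3% and 14.7% against 19.0% and 16.9%, and for IPO9-AS1 at 46.1% and 40.6% against 58.3% and 49.3%. GGACA was at 75.2% and 71.1% against 68.8% and 80.2% for ZNF503-AS2. In TMPO-AS1, GGACA was at 78.0% and 79.6% against 80.8% and 77.8%, and GTACT at 25.5% and 26.4% against 31.9% and 26.1%.

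The window around the start of ZBTB11, a zinc finger transcription factor gene, held 5 sites of ZBTB11-AS1, more than any other window, and is printed on the strand of the antisense gene with each site's 5 bases in capitals.
ZBTB11 window at chr3:101677083-101677382, plus strand: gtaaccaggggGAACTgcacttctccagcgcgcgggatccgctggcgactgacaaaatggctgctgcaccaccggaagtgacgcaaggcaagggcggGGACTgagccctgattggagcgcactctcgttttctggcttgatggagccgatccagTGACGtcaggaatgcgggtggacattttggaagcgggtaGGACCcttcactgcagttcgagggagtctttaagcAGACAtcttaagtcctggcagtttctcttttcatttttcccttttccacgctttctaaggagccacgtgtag
The first of these sites (GAACT) was at 73.1% and 61.5% with ascorbic acid and 66.7% and 61.5% in control, on 21 to 26 reads. The second (GGACT) was at 92.3% and 88.4% with ascorbic acid and 93.3% and 91.2% in control. The third (TGACG) was at 32.3% and 32.2% with ascorbic acid and 28.8% and 33.3% in control. Both groups overlapped at each of these sites. The fourth (GGACC) was at 41.3% and 34.2% with ascorbic acid and 42.0% and 33.8% in control, and the last (AGACA) at 22.1% and 23.9% against 29.4% and 29.0%. The groups overlapped at the fourth too and lay apart at the last, and none of the 5 passed the test. Among all 27 sites, 1 fell, the site of MBNL1-AS1, at 86.5% and 83.9% with ascorbic acid and 100% in both control libraries (adjusted p = 0.00153, edgeR).

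m6A on antisense genes was lower with ascorbic acid, and no antisense site or gene rose. Over the 536 sites the median level was 39.4% and 39.2% in the ascorbic acid libraries, against 44.4% and 46.2% in the control libraries. The means of these medians were 39.3 ± 0.166% and 45.3 ± 1.21% (SD, n = 2 each), a difference of -5.97 points. Both ascorbic acid libraries were below both control libraries, and the exact two-sided permutation test gave p = 0.333, the smallest p that 2 against 2 libraries allow. All other sites had means of 33.8 ± 0.126% with ascorbic acid and 40.9 ± 1.23% in control. The antisense median was thus higher by 4.96 points over the 4 libraries, but by only 1.62 points among sites with at least 50 reads. At 50 to 99 reads it was 34.6% against 33.2% at all other sites with ascorbic acid and 38.1% against 40.2% in control. At 200 reads or more it was 27.4% in both sets of sites with ascorbic acid, and 31.8% against 33.4% in control, so the order of antisense and other sites was not the same at every depth. The change per site had a median of -4.35 points in antisense genes and -4.90 points elsewhere, and 80.2% of antisense sites were lower with ascorbic acid against 82.9% of all other sites. Unconverted A, which raises levels, had medians of 3.70% and 3.81% in the ascorbic acid libraries and 3.76% and 5.15% in the control libraries over the antisense genes. After subtraction of it the difference was -5.83 points.

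By the quasi-likelihood test of edgeR on the A and G reads, adjusted over all 78509 sites, 84 antisense sites in 44 genes fell (15.7%, with 25.7% of all tested sites called lower) and 0 rose (0.219% of all tested sites called higher). At an unadjusted p under 0.05, 122 were lower and 3 higher (in ZNF687-AS1, SLC9A3-AS1 and LOXL1-AS1, named after their values were seen). The share of all tested sites at that cut is not given here, so these counts cannot be set against the background. DESeq2 called 27 lower and 0 higher. The count of 84 was lower with any 1 library left out, which leaves 1 library in a group for all sites alike. Counts in other settings, here and below, are given without the share of all tested sites or genes. From these counts alone, a drop in antisense calls cannot be told from a drop in all calls. Among the 84 sites that fell the median level was 55.8% with ascorbic acid and 77.7% in control. The median change per site was -15.7 points, and in 27 the loss exceeded 20 points. These sites were picked by the test on the same values, which favours large losses. Without regard to the test, both ascorbic acid libraries were below both control libraries at 249 antisense sites (46.5%) and above them at 22 (4.10%). Of all tested sites 55.4% and 4.22% were in these classes.

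**Figure D1:**
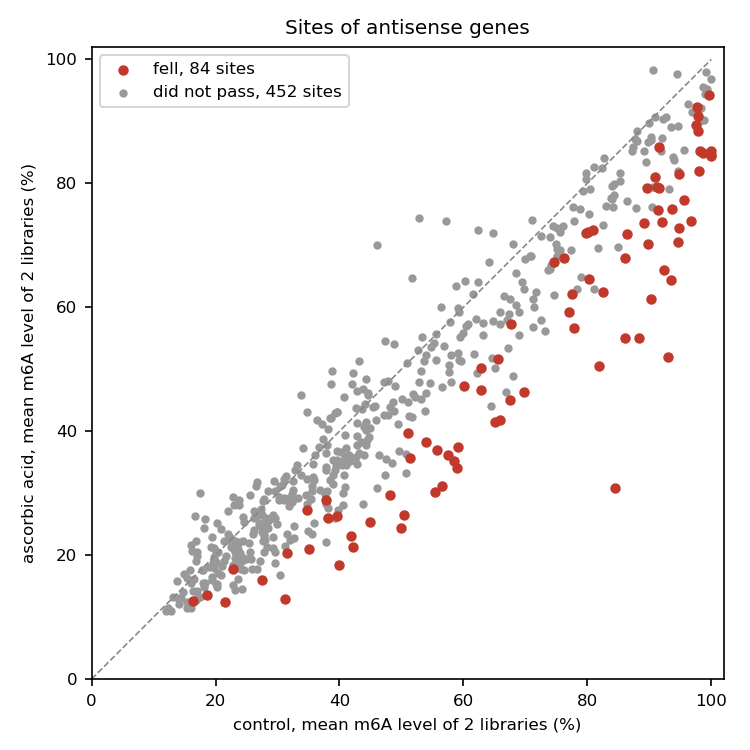
m6A level of the 536 antisense sites, ascorbic acid on the vertical axis and control on the horizontal axis, each the mean of 2 libraries in percent. Red points are the 84 sites that fell, grey points the 452 that did not pass, and the dashed line marks equal levels; the red point farthest below the line is the TP73-AS1 site at a mean difference of -53.7 points.

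The steepest loss was in TP73-AS1, the antisense gene of TP73, which encodes a transcription factor of the p53 family. Its site at chr1:3745830 on the minus strand was at 30.5% and 31.1% with ascorbic acid and at 84.2% and 84.8% in control, with 114 to 165 reads a library. The groups lay far apart, and the log2 odds of an A read fell by 3.61 (SE 0.27, adjusted p = 2.27e-14, edgeR). Next came a site of EMC3-AS1, antisense to a subunit of the endoplasmic reticulum membrane protein complex, at chr3:10005501, with 52.4% and 51.7% against 93.8% and 92.3% (adjusted p = 4.05e-05), on only 21 to 32 reads. The site of COX10-AS1, beside the gene of a heme A synthesis enzyme, was at 53.8% and 47.2% against 77.6% and 86.0% (chr17:14034257). At each of these sites the 2 groups did not overlap.

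Further sites among the 10 largest falls lay in 4 other genes. SLC25A25-AS1, named for a mitochondrial carrier, had 2 of them, at -31.0 and -25.4 points. TTN-AS1, which runs against the titin gene, also had 2, at -29.1 and -28.9 points and both lie inside the TTN span. The site of ARRDC3-AS1 at chr5:91380743 was at 19.2% and 29.4% with ascorbic acid and 54.5% and 45.5% in control, on 22 to 34 reads. The best measured of the 10 was the VPS9D1-AS1 site at chr16:89717596, with 1153 to 1529 reads a library, at 65.5% and 66.5% with ascorbic acid and 91.9% and 93.0% in control (adjusted p = 8.65e-21).

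Reads were summed over the sites of each gene for a test per gene, and 37 of 126 antisense genes fell (29.4%, with 56.7% of all 10782 genes called lower) and 0 rose (0.297% of all genes called higher). At an unadjusted p under 0.05, 1 gene was higher, ZNF687-AS1, with 35.9% and 24.2% in ascorbic acid libraries and 12.3% and 22.8% in control libraries (adjusted p = 0.0541, edgeR). The share of all genes at that cut is not given here. DESeq2 called 12 lower and 0 higher. With 1 library left out the number of genes called went up or down, depending on the library. A lower level of any size was seen in 110 of the 126 genes, and the share of all genes that were lower is not given here. Both ascorbic acid libraries were below both controls in 75 of the 126 genes and above them in 4. Of all 10782 genes, 8266 (76.7%) were below and 189 (1.75%) above, so the share below was smaller in antisense genes.

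VPS9D1-AS1 (chr16:89711856-89718165, plus strand), a transcript inside its sense gene, was the most deeply read antisense gene named here, with 12695 to 16652 reads over 12 sites. Its level was 38% and 38.3% with ascorbic acid and 47.2% and 48.9% in control, a log2 odds change of -0.59 (SE 0.07, adjusted p = 2.52e-07). Of its 12 sites 9 fell, and the size differed along the RNA. The site at 89717711 was at 89.1% and 89.8% against 97.8% and 97.3%, and that at 89717646 at 19.9% and 20.9% against 29.9% and 33.2%. The site at 89718139 did not pass, at 27.4% and 25.6% against 29.8% and 28.8%.

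TP73-AS1 (chr1:3735984-3747373, minus strand) had the most sites, 37, of which 8 fell. Its level was 38.1% and 36.0% with ascorbic acid and 43.3% and 46.6% in control (adjusted p = 6.22e-05). The site at 3746428 was at 74.3% and 71.9% against 75.4% and 76.8%, and did not pass. The site at 3746240, near full methylation in control, fell as well, with 85.4% and 85.1% against 98.0% and 98.4% (adjusted p = 3.51e-08).

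**Figure D2:**
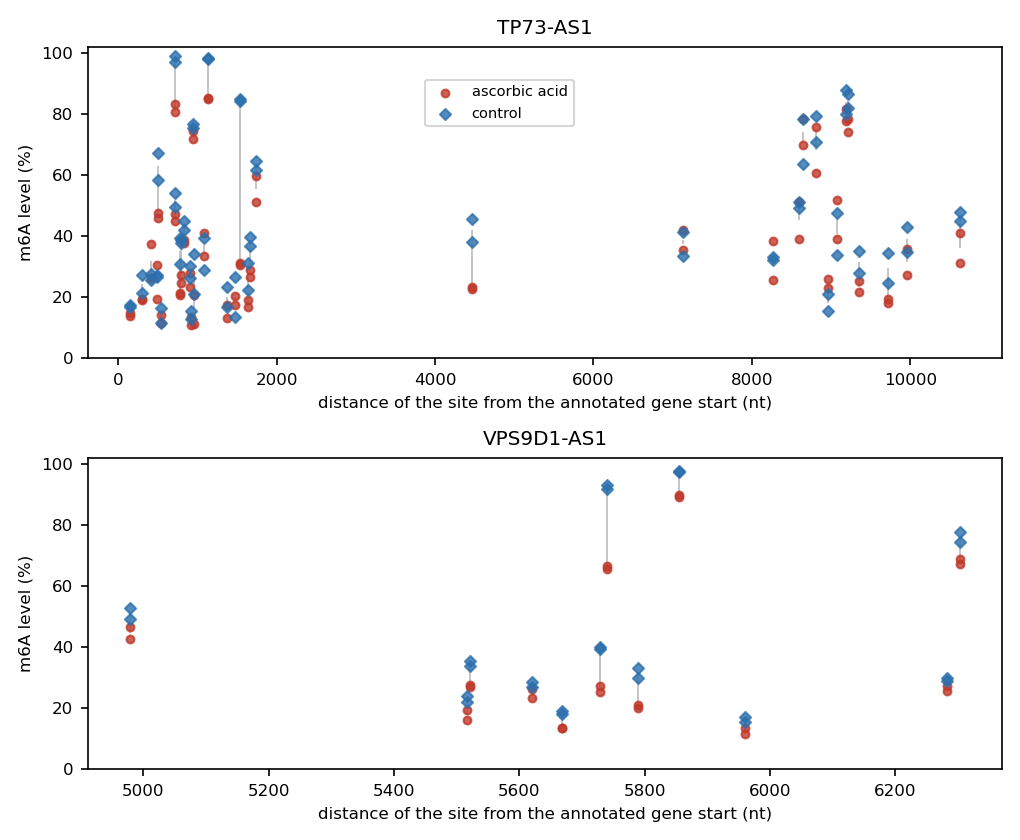
m6A level in percent at each tested site of TP73-AS1 (top, 37 sites) and VPS9D1-AS1 (bottom, 12 sites) against the distance in nt from the annotated gene start. Red circles are the 2 ascorbic acid libraries, blue diamonds the 2 control libraries, and grey lines join the group means; in VPS9D1-AS1 the red circles lie below the blue diamonds at every site.

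Among the other genes that fell, those with the largest loss of level among genes with at least 3 sites were CCDC183-AS1, TTN-AS1, SLC25A25-AS1, VASH1-AS1 and MAGI2-AS3. CCDC183-AS1 was at 37.5% and 40.5% with ascorbic acid and 57.1% and 59.0% in control over 3 sites. TTN-AS1 was at 46.9% and 50.7% against 64.6% and 63.2% over 8 sites. VASH1-AS1, antisense to the gene of a tubulin carboxypeptidase, was at 50.1% and 50.9% against 63.9% and 64.8%, with adjusted p = 0.000171. In none of these genes did the groups overlap. MAGI2-AS3 had lower levels in both groups, 19.2% and 20.8% with ascorbic acid and 33.8% and 30.8% in control.

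COX10-AS1, with 2 sites, had the second smallest p, at 63.5% and 61.5% with ascorbic acid and 86.6% and 87.8% in control (log2 odds -2.02, SE 0.32, adjusted p = 1.97e-05). CCNT2-AS1, beside a cyclin of the elongation factor P-TEFb, had 1 site at 85.7% and 83.3% against 100% in both controls. That site had only 21 to 37 reads a library, and DESeq2 did not call the gene. FOXD3-AS1, next to a pluripotency and neural crest transcription factor, was at 45.7% and 50.3% against 60.2% and 68.1%. OIP5-AS1, the human homologue of the conserved RNA cyrano, was at 42.5% and 43.1% against 49.7% and 49.9% (adjusted p = 0.00284). HOXA11-AS, which starts 176 nt from a homeobox gene, was at 57.8% and 60.4% against 65.4% and 66.5% over 11 sites, of which 4 fell. EMC3-AS1 was at 54.4% and 54.6% against 60.3% and 67.4%, with the control libraries further apart than the ascorbic acid libraries. ASB16-AS1 and TMEM147-AS1 fell as well, by 10.6 and 8.79 points.

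Several site-rich genes did not pass. ZNF503-AS2, with 17 sites, was at 42.7% and 41.2% with ascorbic acid and 43.7% and 45.9% in control (adjusted p = 0.0839). ZBTB11-AS1, with 15 sites, was at 39.7% and 36.2% against 39.1% and 41.0%, and the groups overlapped. MAPKAPK5-AS1 was at 33.5% and 30.7% against 33.6% and 34.2%, ARRDC1-AS1 at 41.3% and 40.8% against 45.8% and 42.1%, BOLA3-AS1 at 30.9% and 30.4% against 34.0% and 33.0%, and NOP14-AS1 at 61.4% and 63.7% against 65.0% and 65.2%. Of the 15 antisense genes with at least 10 sites, 6 fell (40.0%), against 79.1% of the 2440 other genes with as many, and their fewest summed reads had medians of 1084 and 2078. By summed reads in the library with fewest, the share of genes that fell was 20.7% of antisense and 23.4% of all other genes at 20 to 99 reads, and 37.0% and 40.8% at 100 to 299. It was 37.9% and 62.2% at 300 up to 1000 reads, and 33.3% of 12 antisense genes and 78.7% of all other genes at 1000 or more. The gap between the shares was thus small in genes with few reads and wide in genes with many. In the class of 1000 or more the fewest summed reads had medians of 1300.5 in antisense genes and 2319.5 in all other genes. Depth was therefore not equal in that class, and its part in the gap was not tested.

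The highest control levels among genes with at least 3 sites were those of ATXN1-AS1, TRIM52-AS1, ATP6V0E2-AS1, HOXA11-AS and NOP14-AS1. ATXN1-AS1 fell, at 60.6% and 67.1% with ascorbic acid and 70.3% and 71.5% in control. TRIM52-AS1 was at 63.7% and 65.2% against 64.8% and 72.4% and did not pass. The control means of the 5 genes lay between 65.1% and 70.9%, and neighbours in this order differed by less than the spread between control replicates of TRIM52-AS1. At the low end stood UBAC2-AS1, SLC5A4-AS1, ZNF674-AS1, A1BG-AS1 and PRKCQ-AS1, with control means of 27.6% to 31.5%. Of the 5 genes with the least negative or positive change, UBAC2-AS1 was at 30.4% and 32.8% against 31.6% and 23.7%, and LOXL1-AS1 at 45.3% and 43.6% against 39.7% and 41.6% (adjusted p = 0.411). ASH1L-AS1, OVCH1-AS1 and THAP7-AS1 differed by -0.166, -0.321 and -0.438 points, and the log2 odds change of ASH1L-AS1 had the other sign, 0.02.

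**Figure D3:**
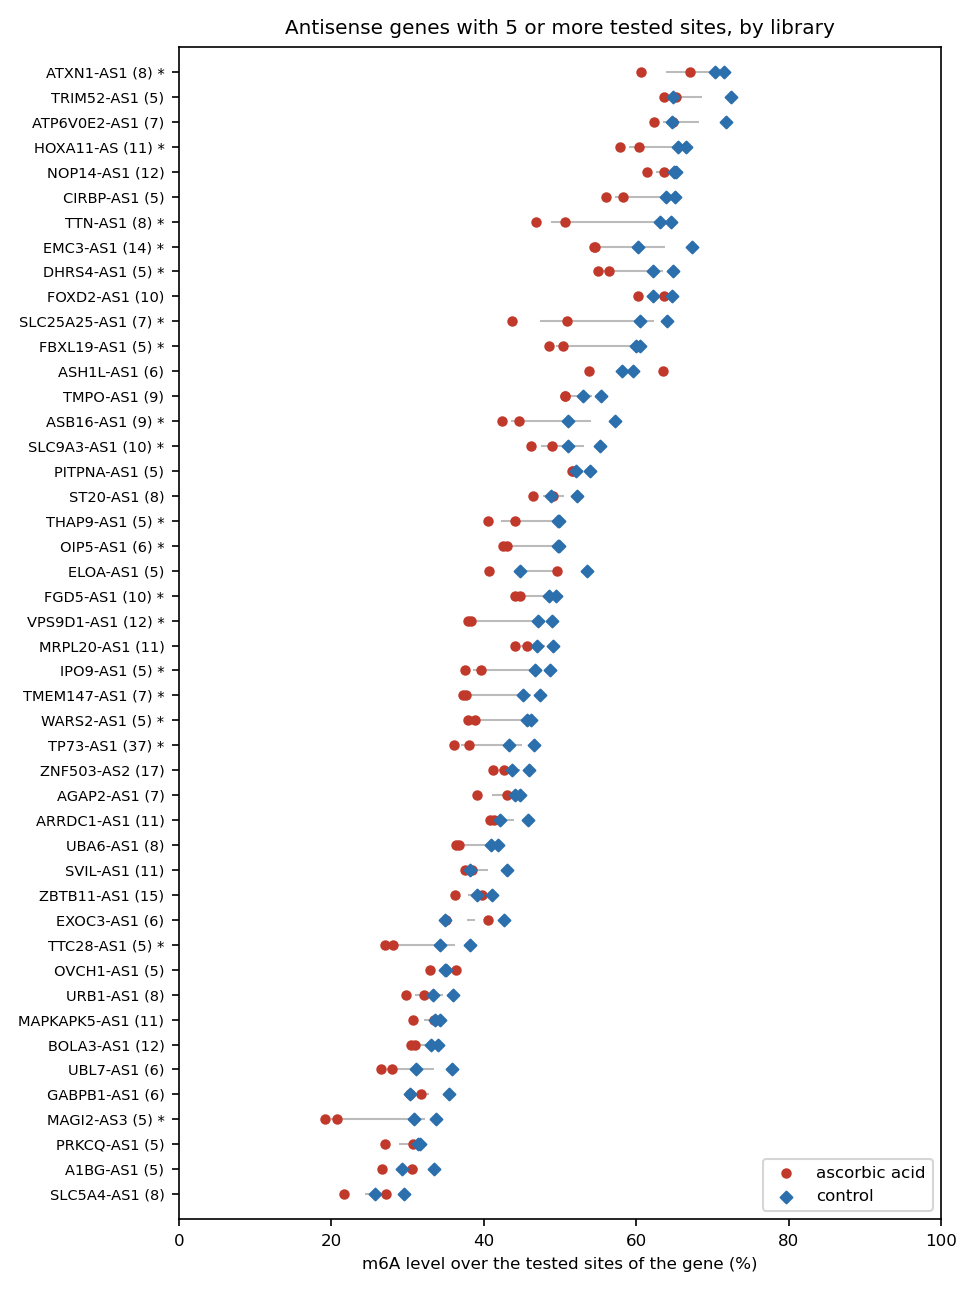
m6A level in percent over the tested sites of the 46 antisense genes with 5 or more sites (number in brackets), ordered by control mean. Red circles are ascorbic acid libraries, blue diamonds control libraries, grey lines join the group means and an asterisk marks genes that fell; MAGI2-AS3 near the bottom has both red circles near 20% and both blue diamonds above 30%.

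Antisense sites were read less deeply than the rest, with a median of 52 reads in the library with fewest against 86 for all other sites. At 20 to 49 reads 12.6% of antisense sites and 15.1% of all other sites fell, and at 50 to 99 reads 11.2% and 21.6%. At 100 to 199 reads 20.2% of 84 antisense sites and 28.2% of all other sites fell. At 200 reads or more both shares were 40.9%, of 44 and 19236 sites. VPS9D1-AS1 gave 9 of the 18 antisense sites that fell at this depth, and without it 9 of 33 fell (27.3%), a setting chosen after seeing the data. Long intergenic RNA genes (LINC), at the same median of 52 reads, had 23.0% of 291 sites lower. These differences were not tested, since sites are not replicates.

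**Figure D4:**
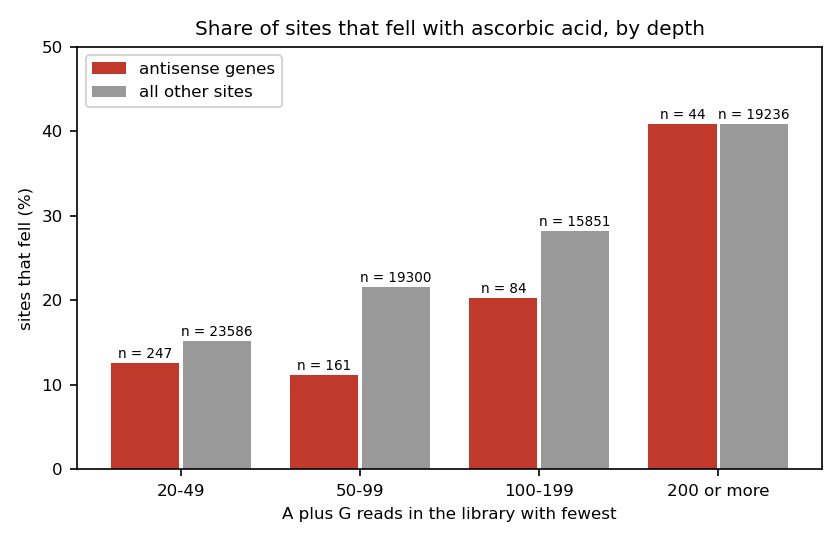
Share of sites that fell, in percent, by the number of A plus G reads in the library with fewest. Red bars are antisense sites and grey bars all other sites, with the number of sites above each; the red bar is lower in the 3 classes below 200 reads, and the bars are equal at 200 reads or more, where without VPS9D1-AS1 the antisense share is 27.3%.

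The fall was also set beside the level. Of antisense sites with a mean level of 60% up to 90%, 26.9% fell, against 46.5% of all other sites, and the library medians differed by -9.35 and -12.4 points. Below 30% the shares were 5.36% and 12.0%, and at 30% up to 60% they were 14.1% and 24.9%. At 90% or more 10 of 28 antisense sites fell (35.7%), against 44.7% of all other sites, but the median change per site was larger in antisense genes, -5.44 against -4.87 points, and the library medians differed by -6.63 and -5.71 points. The median fewest reads at 60% to 90% were 43 in antisense genes and 74 elsewhere, so depth moves with this contrast and its part in it was not tested.

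Of the antisense sites inside the span of the sense gene 38 of 144 fell (26.4%), and of those outside it 46 of 383 (12.0%), at median fewest reads of 49.5 and 56. Without VPS9D1-AS1, which gives 9 of them, the share inside was 22.0%, and without TP73-AS1 the share outside was 11%. At 20 to 49 reads, without VPS9D1-AS1, the shares were 23.6% inside and 8.33% outside, while the median change per site was -5.28 points inside and -5.44 points outside. At 50 to 99 reads the shares were 16.3% and 9.40%, and at 100 or more 29.4% of only 17 sites and 21.4% of 98. By arrangement, 34.5% of 58 sites fell in genes inside the sense gene and 12.3% of 235 in genes whose start lies within 1000 nt of the sense start, with 14.6% of 185 sites in genes that overlap otherwise and 17.2% of 29 in genes without overlap. Without VPS9D1-AS1 the share in genes inside the sense gene was 23.9% of 46 sites. Along the gene, 1 of 18 sites in the first 200 nt fell, and the shares in the 5 classes beyond it ran from 8.57% at 1000 up to 2000 nt to 20.6% at 2000 up to 5000 nt. These shares were not tested.

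The antisense gene had the higher level in 60% to 63.3% of the 90 pairs in each library. The median over the 90 pairs of antisense minus sense level was 6.93 and 5.11 points with ascorbic acid and 7.63 and 6.39 points in control. It was above 0 in all 4 libraries, and the exact sign-flip permutation test gave p = 0.125, the smallest that 4 libraries allow. All 4 libraries measured the same pairs at the same sites, so their agreement in sign is not independent. This p covers the spread between libraries, and the spread between pairs was not tested. The antisense gene was higher in every library in 45 pairs and lower in every library in 26. The library with fewest reads had a median of 112 reads for the antisense gene of a pair and 735.5 for the sense gene, and 59 sense genes had more sites than their antisense gene. With at least 50 reads a site the mean of the 4 medians was 3.85 points, in place of 6.51. The antisense gene was then higher in only 51.1% to 57.4% of 47 pairs in each library. The lists need at least 5 A reads, which asks for a higher level at sites with few reads. The part of this minimum in the pair difference was not tested.

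The median difference over the pairs did not move beyond the libraries' spread. It averaged 6.02 ± 1.29 points with ascorbic acid and 7.01 ± 0.880 points in control (SD, n = 2 each). The exact permutation test gave p = 0.667, where the smallest possible p is 0.333. Single pairs moved in both directions. The difference in both ascorbic acid libraries was below that in both control libraries in 32 of the 90 pairs, and above it in 32. These counts were not tested. Both genes fell in 15 pairs, the antisense gene alone passed in 16, the sense gene alone in 37, and neither passed in 21. In the last pair the sense gene NDUFB2, a respiratory chain subunit, rose, at 21.5% and 17.5% with ascorbic acid and 11.2% and 15.8% in control, while NDUFB2-AS1 had 82.9% and 90.5% against 90% and 89.7%. This pair was named after its values were seen. Passing in 1 gene and not in the other was not tested as a difference.

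The widest gap above the sense gene, in pairs with at least 2 sites on each side, was that of MBNL1-AS1. It was at 68.7% and 68.1% with ascorbic acid and 76.6% and 70.8% in control, while MBNL1, a splicing regulator, was at 21.0% in both ascorbic acid libraries and 30.0% and 29.4% in control. EMC3-AS1 stood 39.3 points above EMC3, whose 3 sites were at 20.8% and 18.9% against 19.1% and 20.8%. SLC25A5-AS1, named for an ADP/ATP carrier, was at 49.3% and 45.1% against 61.7% and 67.6%, and SLC25A5 at 18.5% and 19.0% against 20.8% and 22.1%. Both genes of that pair fell. CIRBP-AS1, TMPO-AS1, HOXA11-AS, OIP5-AS1 and TMEM147-AS1 stood 22.7 to 31.5 points above their sense genes.

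The reverse order held in other pairs. MNX1-AS1 was at 24.2% and 28.0% with ascorbic acid and 29.7% and 26.4% in control, whereas MNX1, a homeobox gene of motor neurons, was at 55.0% and 59.5% against 67.8% and 71.7%. LYRM4-AS1 was at 48.6% and 53.1% against 54.7% and 60.5%, and LYRM4, which serves iron-sulfur cluster assembly, at 87.4% and 86.9% against 92.6% and 95.2%. In both pairs the sense gene fell and the antisense gene did not pass. ZNF213-AS1, TP73-AS1, UBAC2-AS1, PAXIP1-AS1, URB1-AS1 and TTC28-AS1 stood 15.7 to 23.3 points below their sense genes. URB1-AS1 was at 29.8% and 32.2% with ascorbic acid and 33.3% and 36.0% in control. URB1, for a ribosome biogenesis protein, was at 41.4% and 40.6% with ascorbic acid and 56.5% and 59.1% in control, and fell.

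**Figure D5:**
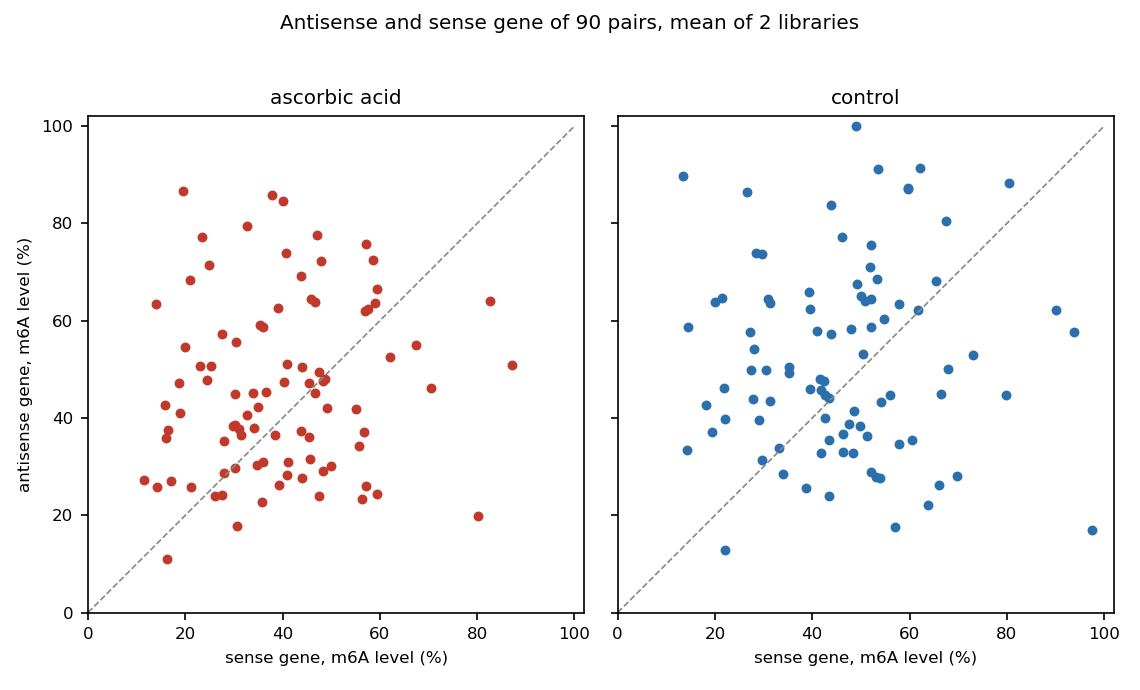
m6A level of the antisense gene against that of its sense gene in percent for the 90 pairs, each the mean of 2 libraries, with ascorbic acid on the left and control on the right. The dashed line marks equal levels; 45 pairs lie above it and 26 below it in every library.

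The amount of antisense RNA, read from the deposited gene coverage of 150 antisense genes, was not detectably changed. By limma 0 passed (0.253% of all genes called higher and 0.0422% called lower). At an unadjusted p under 0.05, 9 were higher and 18 lower, and the share of all genes at that cut is not given here. The median log2 fold change was -0.0402 in antisense genes and -0.00111 in all genes, a difference that was not tested. The smallest adjusted p was that of LYRM4-AS1, at 0.0792, with scaled coverages of 35.9 and 35.3 in ascorbic acid libraries and 27.9 and 26.7 in control libraries. Fold changes on the log2(coverage + 1) scale ran from -0.33 to 0.37. Median scaled coverage of antisense genes was 38.8 and 37.9 with ascorbic acid and 36.2 and 39.7 in control, against 91.7 to 94.5 for all genes. In bulk samples fewer expressing cells and less RNA per cell cannot be told apart.

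The 4 libraries listed 132989 to 144171 sites with 22592887 to 28562744 A plus G reads at them, and antisense sites held 75798 to 90524 of these. Of 8 genes that mark HEK293T cells, 5 were listed in all 4 libraries, and of 7 markers of leucocytes, hepatocytes, muscle, endothelium and erythroid cells, 0 were. Only genes with a called m6A site are listed, so an unlisted gene may still be expressed.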

How the data were processed

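The deposited files are 1 list of called m6A sites per library. Reads were trimmed with Trimmomatic 0.39 and aligned with STAR to hg38/GRCh38, per the submitters' processing notes; the site caller is not stated. The deposited counts are A plus G reads and A reads at each site. The deposited level is a fraction, A over A plus G, and equals the ratio of the deposited counts. The deposited conversion rate is also a fraction. The deposited gene coverage is a signal whose definition is not stated. The deposited p-values test each site against background. The lists hold sites with at least 15 A plus G reads, at least 5 A reads and a level of at least 10%, so a site that dropped below these values in any library is not tested.

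A and G counts of sites with at least 20 reads in all libraries, and their sums per gene, were tested with edgeR 4.0.16 (quasi-likelihood, a term for each library, treatment on the odds of A) in R 4.3.3, over all sites or genes, with Benjamini-Hochberg adjustment and a threshold of 0.05. Gene coverage, scaled by median ratios, was tested with limma 3.58.1 on log2(value + 1). DESeq2 1.42.0 and limma on log2 odds were alternatives, beside the read minimum, leaving out each library, sites with another site 6 nt away, annotated strand and unconverted A. The tests were checked on simulated data, in which A reads varied by counting error alone and few sites or genes changed. That check of the site and gene tests does not cover spread between libraries. Library medians were compared by exact permutation. With 2 libraries a group, errors are SDs over 2 values and cover counting and library spread only. Named genes follow a rule: the 10 largest falls among called sites, 15 called genes by p, the most sites, the highest and lowest levels, the largest changes and the widest pairs. A gene that the rule names is not reported here. The members and lists were chosen with earlier results of these data known. Sequences are from RefSeq GRCh38.p14.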

Additional observations from a re-analysis of the deposited data

Results flagged for a closer look

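Antisense sites listed in both ascorbic acid libraries and in no control library numbered 62, in 43 genes, against 36 sites in 28 genes listed in both control libraries and in no ascorbic acid library. They lie outside the comparisons above, which need a site in all 4 lists. As shares of the 1549 antisense sites listed anywhere they were 4.0% and 2.32%, while of all other sites in named genes 2.67% and 3.14% were so listed. Their median levels were 33.9% and 23.6%, and their median read counts in the library with fewer were 21.5 and 28.5. The shares were not tested, and a site can be unlisted because too few reads covered it.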

How the results depend on the processing

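The 84 antisense sites that fell became 27 by DESeq2 and 47 by limma on log2 odds, and 44 to 67 with 1 library left out. The 37 genes that fell became 12 by DESeq2, 19 with at least 50 reads a site, and 24 to 40 with 1 library left out. All 27 sites and 12 genes of DESeq2 were among the main calls. Sites that rose numbered 0 to 3 with 1 library left out (LOXL1-AS1, GATA2-AS1 and TRIM52-AS1 without control replicate 2, SLC9A3-AS1 without ascorbic acid replicate 2), and genes 0 to 2 (ZNF687-AS1 in both of these fits, GATA2-AS1 in the first). Without sites 6 nt apart 1 gene rose, ZNF687-AS1. With the replicate block 90 sites and 36 genes fell, and 1 site (SLC9A3-AS1) and 1 gene (ZNF687-AS1) rose. The block fit rests on a number alone: deviations of same-numbered libraries correlated at 0.021 over antisense sites and -0.000463 over all sites. These genes were named after their values were seen.

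The difference of antisense from all other sites, 4.96 points, was 5.72 with no read minimum and 1.62 with at least 50 reads. The change of the pair difference, -0.990 points, turned to 0.0212 with at least 50 reads and to 0.251 with the median of site levels. With 1 library left out it was -1.90 to -0.0793, the median change of sites -6.83 to -5.12 and the pair difference 6.14 to 6.98. The coverage count stayed 0 in every setting. For the named genes and sites, 513 values kept direction and side of the threshold, 29 lost and 11 gained the call, and 13 changed sign, none of them called. These log2 odds changes were -0.00488 by limma and -0.0197 with no read minimum for ASH1L-AS1, 0.0491 with no read minimum for MNX1-AS1, and 0.0442 for A1BG-AS1 and 0.286 for ZNF213-AS1 with at least 50 reads. The rest came with 1 library left out, where the changes ran from -0.294 to 0.289 for ASH1L-AS1, -0.130 to 0.0861 for OVCH1-AS1, -0.539 to 0.179 for PAXIP1-AS1, -0.116 to 0.0664 for THAP7-AS1 and -0.359 to 0.221 for ZNF213-AS1. The causes were not tested. The median antisense site had 52 reads in the library with fewest.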
